A study of Homo sapiens with 22 samples.

Results

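SK-N-AS cells on the 4th day of a stage with PP121 and bufalin together (S2D4) were compared with untreated SK-N-AS cells across all genes. The comparison rests on 8 of the 22 libraries of the series, chosen by their labels, 4 from S2D4 and 4 from untreated cells. SK-N-AS is an established human neuroblastoma cell line that the labels class as mesenchymal (MES). Untreated cells were kept in DMEM with 10% fetal bovine serum. S2D4 cells had passed through a stage of 4 days with 5 µM PP121 in DMEM and 1% serum (its end point is called S1D4), and then received 5 µM PP121 and 100 nM bufalin for 4 days in Neurobasal medium with the B27 supplement. S1D4 cells and cells after 30 days of the PP121 and bufalin stage (S2D30), 4 libraries each, serve below as the nearest groups. No group received bufalin alone or the new medium alone. Drug, medium, serum and time therefore changed together in S2D4, and their parts cannot be told apart.

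PP121 is a small molecule that inhibits tyrosine kinases, including receptors of the PDGF family, SRC and ABL, as well as the lipid and protein kinases PI3K and mTOR. Bufalin is a cardiac glycoside from toad venom; it binds the sodium pump, the Na+/K+-ATPase that keeps sodium low and potassium high inside cells. Neuroblastoma arises from the sympathetic nervous lineage, and its cells lie between an adrenergic state, marked by PHOX2A, GATA3 and the enzymes of catecholamine synthesis, and a mesenchymal state, marked by PRRX1, SNAI2 and vimentin.

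Total RNA was sequenced as pairs of 150-base reads, and the deposited table gives raw counts per gene. The 8 libraries held 18793711 to 37506800 counts. Levels are given as CPM, counts relative to library size after TMM scaling, in the order of replicates 1 to 4, and are not corrected for gene length. Differences are log2 fold changes, S2D4 minus untreated, ± the standard error of the fit. Changes were tested with edgeR's quasi-likelihood test on the counts of all 16 SK-N-AS libraries, and p-values were adjusted by the Benjamini-Hochberg method over the 15810 genes tested. A gene is said to have risen or fallen where its adjusted p was under 0.05. The labels number the replicates but do not say that they were separate cultures, so the p-values measure the spread between these libraries, which may be technical. In bulk RNA, fewer cells of a kind and less RNA per cell cannot be told apart.

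The library of S2D4 replicate 4 stood apart. Its log2 CPM values correlated with those of replicates 1 to 3 at r = 0.9628 to 0.9648, while those 3 correlated with each other at 0.9895 to 0.99. Replicate 4 lay nearer to untreated cells than the other 3 did, with a mean r of 0.8934 against 0.8819 to 0.8829, and nearer to S1D4, at 0.9343 against 0.9211 to 0.9229. Over 4620 genes called without it that differed at least 2-fold, it showed a median of 86.7% of the change of the other 3 libraries. The same measure was 98.6% to 99.6% for each of replicates 1 to 3. Results are therefore also given without replicate 4 for the counts over all genes and for many of the named genes that it changes. Counts of list members include S2D4 replicate 4 unless stated. Untreated replicate 4 also departed from its group. It correlated with untreated replicates 1 to 3 at r = 0.9741 to 0.9801, while those correlated with each other at 0.9839 to 0.9897. Without that library 5156 genes were higher and 5119 lower in S2D4. Below, replicate 4 without a group name is that of S2D4.

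**Figure D1:**
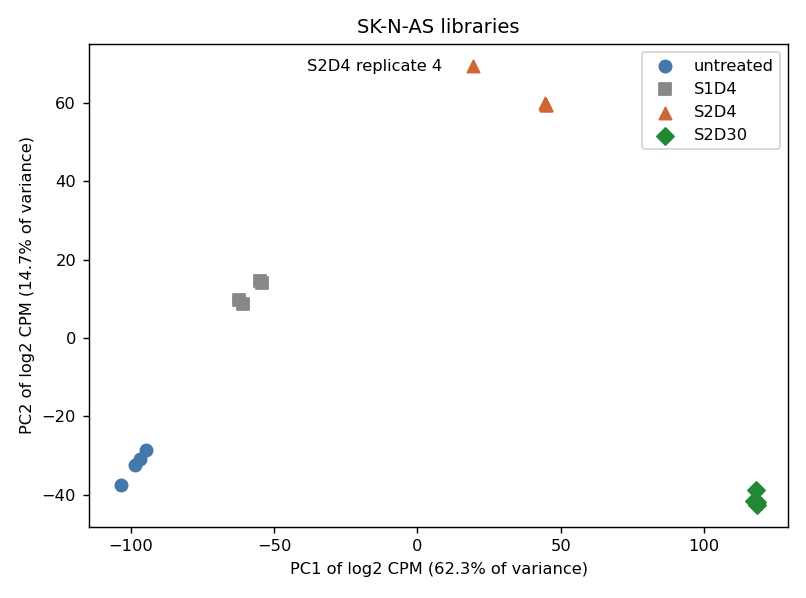
Principal components of log2 CPM of the 16 SK-N-AS libraries; each point is a library, the x axis is PC1 (62.3% of the variance) and the y axis PC2 (14.7%). On PC1 S2D4 replicate 4 lies at 19.51 and the other S2D4 libraries at 44.39 to 44.91, so it is displaced toward the untreated and S1D4 libraries (-103.66 to -54.15). On PC2 it lies at 69.44, farther from those groups than the other S2D4 libraries, at 59.45 to 59.9.

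Markers of both states were present in untreated cells. The summed level of 8 adrenergic markers was 4780 to 10500 CPM in untreated cells, most of it from CHGA, which encodes the secretory granule protein chromogranin A. In S2D4 that sum was 1030 to 1160 CPM in replicates 1 to 3 and 4870 CPM in replicate 4, inside the untreated range. The sum of 8 mesenchymal markers was 990 to 1570 CPM in untreated cells, 4650 to 4960 CPM in S2D4 replicates 1 to 3 and 2580 CPM in replicate 4. Most of that sum came from VIM (vimentin), at 671 to 1280 CPM in untreated cells and 2160 to 4280 CPM in S2D4. PRRX1, CD44, YAP1 and WWTR1 were also higher in every S2D4 library, while FN1 and TWIST1 were lower in every one. SNAI2 was higher in replicates 1 to 3 only. Of the leukocyte markers, PTPRC (CD45) read 169 to 214 CPM in untreated cells and 23.4 to 25.2 CPM in S2D4. CD14 was low but counted, at 0.822 to 1.96 CPM in untreated cells and 1.4 to 2.78 CPM in S2D4. CD3E was at 0 in all 8 libraries, and LYZ, SPI1 and TYROBP had at most 6 counts in any library. The 5 epithelial markers together stayed at 0.255 to 0.747 CPM, with KRT14 at 0, and the 5 glial markers at 1.17 to 4.17 CPM, in the 8 libraries. The mitochondrial share of counts was 5.469% to 12.43% in untreated cells and 4.288% to 4.956% in S2D4 (exact permutation test, two-sided, p = 0.0286, the smallest that 4 against 4 allows, adjusted p = 0.0572 over 4 measures). The share of ribosomal protein genes was 4.209% to 6.216% against 3.118% to 3.37% (exact permutation p = 0.0286, adjusted p = 0.0572). The part of these shares in the results below was not tested.

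Of the 15810 genes tested, 4879 (30.9%) rose and 5097 (32.2%) fell. The median log2 fold change over all genes was -0.02, and the median size among called genes was 0.92. In 3841 genes (24.3%) every S2D4 library lay above every untreated library, and in 4243 (26.8%) every S2D4 library lay below. Without replicate 4, 5020 genes (31.2% of 16098) rose and 5520 (34.3%) fell. Of 9975 genes called with all libraries and tested in both fits, 9450 (94.7%) were also called in the same direction without replicate 4, 525 (5.26%) were not called without it, and 6 of the called genes pointed the other way. Because 63.1% of all genes were called, a share of a gene list near 30.9% higher or 32.2% lower is no more than the background. The lists below were described by such counts and were not tested as sets. Named list members other than the largest rise and fall of each list were chosen after their values were seen.

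VGF, which encodes a neuropeptide precursor made in neurons and endocrine cells, took the largest share of counts of any gene in each S2D4 library. It held 0.029%, 0.028%, 0.02% and 0.015% of the counts of the untreated libraries and 6.176%, 6.494%, 6.408% and 5.295% of those of S2D4. Its level was 290, 283, 199 and 136 CPM in untreated cells and 64800, 68400, 67600 and 60600 CPM in S2D4, with replicate 4 close to the rest. The log2 fold change was 8.17 ± 0.26 (adjusted p = 5.49e-13), a 288-fold difference.

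The 14 largest rises included the cytokines IL24 and IL1B, the chemokine CXCL8, the collagenase MMP1 and stromelysin MMP10, the glycoprotein hormone STC1, the vasoactive peptide precursor UTS2, the pentraxin NPTX1 and the collagen COL22A1. IL24 had at most 3 counts in every untreated library and read 67.6, 61.6, 61.9 and 8.81 CPM in S2D4. Set against 3 counts per library, the S2D4 mean of IL24 was at least 327-fold higher (adjusted p = 1e-08). Replicate 4 was the lowest S2D4 library by far. The 14 largest rises, like the 14 largest falls, were taken only from genes whose groups did not overlap, so that separation follows from the choice. Other bounds given for rises also take the mean over the S2D4 libraries, replicate 4 included.

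MMP1, which cleaves fibrillar collagen, read 1.69, 1.31, 0.509 and 0.443 CPM in untreated cells and 1770, 1680, 1600 and 60.7 CPM in S2D4, a log2 fold change of 10.28 ± 0.89 (adjusted p = 4.03e-08). STC1 read 3.93, 4.62, 1.63 and 2.56 CPM against 3360, 3280, 3150 and 1390 CPM, a change of 9.76 ± 0.39 (adjusted p = 6.16e-12). CXCL8, the neutrophil attractant interleukin 8, read 0.474, 0.233, 0.102 and 0.221 CPM against 212, 201, 187 and 89.5 CPM, a change of 9.21 ± 0.58 (adjusted p = 1.04e-09). In all 3 genes replicate 4 was the lowest of the S2D4 libraries.

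IL1B, an inflammatory cytokine, read 0.659, 0.513, 0.0509 and 0.19 CPM in untreated cells and 289, 260, 265 and 26 CPM in S2D4, a change of 9.08 ± 0.72 (adjusted p = 1.51e-08), and of 9.72 without untreated replicate 1. MMP10 was at or under 3 counts in every untreated library and read 32.9, 30.7, 31.3 and 1.23 CPM in S2D4, at least 157-fold higher (adjusted p = 9.84e-07). NPTX1, which gathers glutamate receptors at synapses, was even across S2D4, at 226, 200, 215 and 180 CPM against 0.132, 0.233, 0.0509 and 0.158 CPM in untreated cells (log2 fold change 10.42 ± 0.25, adjusted p = 3.18e-14). Apart from NPTX1 and EGR2, the 14 genes had replicate 4 well below the other S2D4 libraries.

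EGR2, a zinc finger transcription factor of the immediate early family, read 19.3, 19.9, 20.3 and 21 CPM in S2D4 and at most 3 counts per untreated library, at least 132-fold higher (adjusted p = 8.3e-13). THBD, the thrombin receptor thrombomodulin, read 0, 0.0467, 0 and 0.158 CPM in untreated cells and 49, 50.8, 46.7 and 2.94 CPM in S2D4, a change of 9.29 ± 0.98 (adjusted p = 4.32e-07), and of 11.01 without untreated replicate 4. The mucin-type glycosyltransferase GALNT9 was at least 225-fold higher and the homeobox gene IRX4 at least 108-fold higher, both from untreated levels of 3 counts or fewer. By the S2D4 mean, KIAA0226L and COL22A1 were likewise at least 89.9-fold and 114-fold higher. Their replicate 4 read only 3.47 and 1.37 CPM, against 16.3 to 18.7 and 21.8 to 23.6 CPM in replicates 1 to 3. UTS2 read 1.03, 0.793, 1.17 and 0.411 CPM in untreated cells and 399, 429, 408 and 101 CPM in S2D4, a change of 8.63 ± 0.50 (adjusted p = 4.11e-10). In the GENCODE 29 annotation 48.5% of the exon bases of UTS2 lie opposite another gene, and the sources used here do not say whether counting used the strand.

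**Figure D2:**
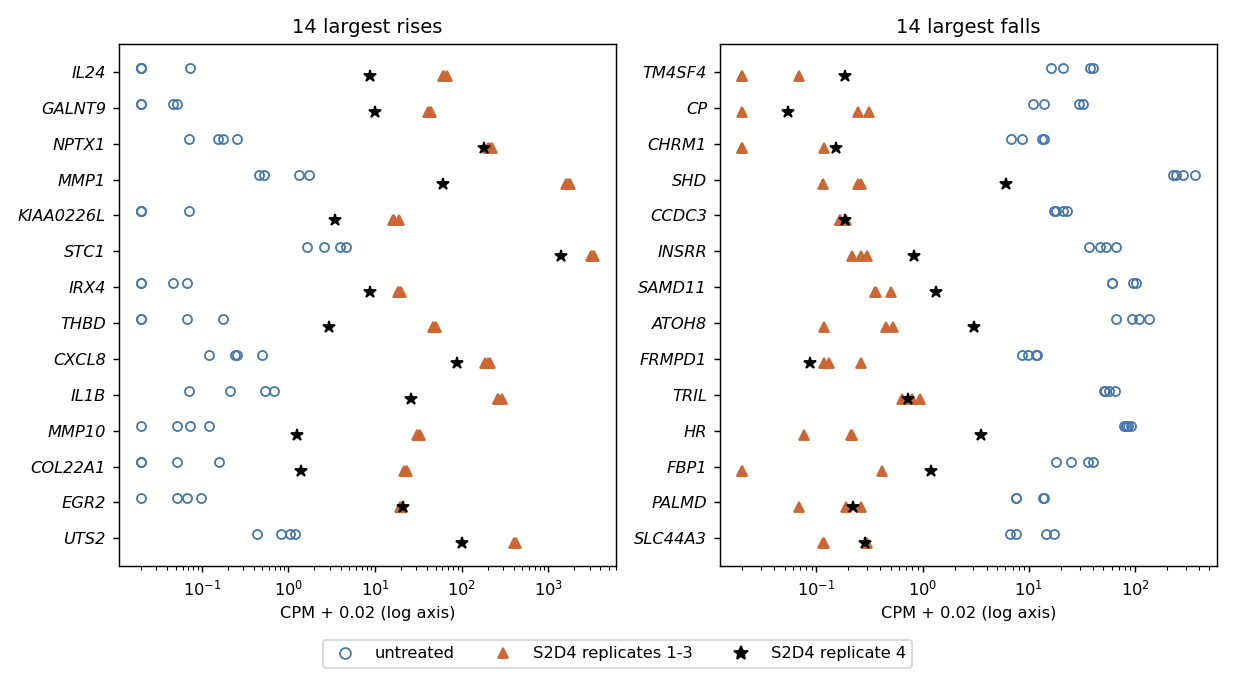
CPM of the 14 largest rises and 14 largest falls in each untreated and S2D4 library, with 0.02 added so that zeros appear on the log axis. The 28 genes were chosen so that the groups do not overlap. S2D4 replicate 4 (star) lies toward the untreated libraries in most of the rises, for example at 60.7 CPM for MMP1 where replicates 1 to 3 read 1600 to 1770 CPM.

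Among the largest falls were receptors, adaptors and metabolic enzymes. SHD, a SRC homology 2 domain adaptor, read 227, 241, 364 and 279 CPM in untreated cells and 0.0964, 0.224, 0.244 and 6.1 CPM in S2D4. The fall was -7.17 ± 0.67 with all libraries (adjusted p = 1.09e-07) and -10.50 ± 0.29 without replicate 4 (adjusted p = 3.22e-14). In replicates 1 to 3 SHD was close to absent, and in replicate 4 it was low but clearly counted. TM4SF4, a tetraspanin-like membrane protein, read 40, 37.5, 20.8 and 16.1 CPM against 0.0482, 0, 0 and 0.167 CPM, a change of -8.64 ± 0.66 (adjusted p = 6.99e-08; -10.32 ± 0.82 without replicate 4).

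CP, the copper-carrying ferroxidase ceruloplasmin, fell from 32, 29.4, 11 and 13.7 CPM to 0.289, 0.224, 0 and 0.0334 CPM, a change of -7.36 ± 0.60 (adjusted p = 2.12e-08), and of -8.08 without S2D4 replicate 1. CHRM1, the M1 muscarinic acetylcholine receptor, fell from 13.2, 13.8, 8.51 and 6.74 CPM to 0, 0, 0.0976 and 0.133 CPM (-7.21 ± 0.47, adjusted p = 1.51e-09; -8.07 ± 0.53 without replicate 4). INSRR, the insulin receptor-related kinase, fell from 36.8, 53.4, 46.6 and 66.5 CPM to 0.241, 0.28, 0.195 and 0.8 CPM (-6.92 ± 0.36, adjusted p = 1.08e-10; -7.71 ± 0.35 without replicate 4). That no S2D4 library of these 3 genes lay within the untreated range follows from the rule by which they were chosen.

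HR, a histone demethylase and nuclear receptor corepressor, read 79 to 91.1 CPM in untreated cells, 0.0561 to 0.195 CPM in S2D4 replicates 1 to 3 and 3.54 CPM in replicate 4, and its fall was -6.18 ± 0.66 with and -9.06 ± 0.49 without that library (adjusted p = 5.25e-07 and 1.03e-10). FBP1, an enzyme of gluconeogenesis, fell by the same pattern, at -6.00 with replicate 4 and -7.72 ± 0.56 without it. ATOH8, a basic helix-loop-helix factor, read -6.45 with and -8.19 ± 0.33 without it, and SAMD11 -6.88 and -7.65 ± 0.35. Falls of similar size in all 4 libraries were those of TRIL (-6.20 ± 0.21), CCDC3 (-6.93 ± 0.42), FRMPD1 (-6.34 ± 0.32), PALMD (-5.95 ± 0.36) and the choline transporter-like gene SLC44A3 (-5.87 ± 0.39).

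The promoters of 4 genes that rose are shown because each holds a motif of factors in the lists below near its start site; they were picked for holding one. Of the 14 largest rises 9 had a promoter window, of which 2 (CXCL8 and MMP10) held the AP-1 motif and 0 the CRE. The sequences are RefSeq's on GRCh38.p14, the 250 bases before the start, written 5′ to 3′ on the strand of the gene. Capitals mark TGACGTCA, the cyclic AMP response element (CRE), or TGANTCA, the AP-1 motif, each searched on both strands in windows from 250 bases before to 50 after the start. Positions count from the start site, without a position 0.
VGF, minus strand, chr7:101165570-101165819, CRE at -79: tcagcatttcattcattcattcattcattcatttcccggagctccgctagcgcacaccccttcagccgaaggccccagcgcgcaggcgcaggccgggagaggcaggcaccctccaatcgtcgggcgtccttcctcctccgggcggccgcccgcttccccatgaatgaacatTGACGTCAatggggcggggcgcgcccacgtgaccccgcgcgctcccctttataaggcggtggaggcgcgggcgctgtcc
PPP1R15A, plus strand, chr19:48872171-48872420, CRE at -58: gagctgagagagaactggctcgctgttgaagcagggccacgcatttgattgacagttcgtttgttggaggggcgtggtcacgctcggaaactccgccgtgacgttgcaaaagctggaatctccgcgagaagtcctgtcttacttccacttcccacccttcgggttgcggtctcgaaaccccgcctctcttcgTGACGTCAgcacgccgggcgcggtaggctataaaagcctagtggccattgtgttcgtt
CXCL8, plus strand, chr4:73740319-73740568, AP-1 at -137: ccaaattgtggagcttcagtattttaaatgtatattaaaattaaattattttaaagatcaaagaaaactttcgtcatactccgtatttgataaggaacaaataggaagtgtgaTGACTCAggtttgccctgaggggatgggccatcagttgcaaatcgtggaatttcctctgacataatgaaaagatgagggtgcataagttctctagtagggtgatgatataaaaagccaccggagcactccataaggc
MMP10, minus strand, chr11:102780629-102780878, AP-1 at -67: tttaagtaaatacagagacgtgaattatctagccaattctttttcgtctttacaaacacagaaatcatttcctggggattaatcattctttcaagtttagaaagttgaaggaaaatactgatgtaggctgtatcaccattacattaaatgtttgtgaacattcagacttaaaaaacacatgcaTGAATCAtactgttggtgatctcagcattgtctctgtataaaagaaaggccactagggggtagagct
A window was available for 11932 of the 15810 genes. The AP-1 motif was in 4.8% of those windows, in 6.17% of the windows of genes that rose and in 3.9% of those that fell. The CRE was in 3.13%, 3.35% and 2.94%, in the same order. Of the cytokine list, 4 of 14 windows (28.6%) held the AP-1 motif, and of the protease list 3 of 12 (25%). These matches describe letters in a window and were not tested.

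Genes of the drug targets themselves changed less than these. All 8 tested genes of the sodium pump list were called, 5 higher and 3 lower. Without replicate 4, 3 were higher and 3 lower. The beta subunit ATP1B3 rose by 0.70 ± 0.10 (adjusted p = 2.39e-05), with untreated libraries at 113 to 153 CPM and S2D4 libraries at 210 to 228 CPM. ATP1B1, a beta subunit that carries the pump to the membrane, fell, at -1.64 ± 0.19 (adjusted p = 1.47e-06), from 73.8, 60, 80.5 and 66.8 to 26.3, 25.3, 22.3 and 16.2 CPM. ATP1B1 thus fell while ATP1B3 rose, with no overlap of the groups in either gene.

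ATP1B2 fell, at -1.90 ± 0.47 with all libraries (adjusted p = 0.00219) and -3.08 ± 0.31 without replicate 4, in which it read 5.17 CPM against 0.488 to 1.16 CPM in the others. Among the small regulatory FXYD subunits, FXYD5 rose by 2.90 ± 0.24 (adjusted p = 2.39e-08), with untreated libraries at 6.86 to 14.9 CPM and S2D4 libraries at 47.9 to 108 CPM, and FXYD6 fell, at -3.21 ± 0.23 (adjusted p = 5.18e-09), with untreated libraries at 31.4 to 51.3 CPM and S2D4 libraries at 3.81 to 5.5 CPM. FXYD1 was under 1 CPM in every library, and its call at 1.88 ± 0.78 (adjusted p = 0.0463) was lost without any 1 of S2D4 replicates 1, 3 and 4 (adjusted p = 0.0501, 0.144 and 0.0744) and untreated replicates 2 and 4 (0.102 and 0.11). Of the 75-base words of the FXYD1 transcripts, 20.5% also occur in another gene, so its counts are uncertain.

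Transporters that move potassium, chloride and calcium were in part higher. Of 24 tested genes of ion and osmolyte transport, 12 rose and 6 fell. SLC12A7, a potassium-chloride cotransporter that lets potassium out of cells, read 3.66, 5.13, 1.73 and 1.96 CPM in untreated cells and 29.3, 30.3, 35.8 and 106 CPM in S2D4, a rise of 4.02 ± 0.41 (adjusted p = 3.09e-07), and of 3.35 ± 0.23 without replicate 4, its highest library. Its relatives SLC12A4 and SLC12A2 rose by 1.51 and 1.53, the plasma membrane calcium pump ATP2B1 by 1.67 and the endoplasmic reticulum calcium pump ATP2A2 by 0.91. The sodium-calcium exchanger SLC8A1 fell, at -2.43, and AKR1B1, which makes the osmolyte sorbitol, fell, at -1.80 ± 0.18 (adjusted p = 2.67e-07).

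Of 9 kinase genes taken as targets of PP121, 5 rose and SRC fell. ABL1 read 159, 161, 149 and 167 CPM in untreated cells and 485, 468, 506 and 456 CPM in S2D4, a rise of 1.59 ± 0.07 (adjusted p = 3.47e-11), even across all libraries. SRC read 104, 108, 109 and 112 CPM and 46.9, 50.5, 50.2 and 103 CPM, a fall, at -0.79 ± 0.18 (adjusted p = 0.00122), and -1.14 ± 0.06 without replicate 4, which read just below the untreated range. Of the PDGF receptors, PDGFRA rose by 1.28 ± 0.14 (adjusted p = 5.74e-07), and PDGFRB by 0.80 ± 0.18 (adjusted p = 0.0013) or, without replicate 4, 0.45 ± 0.08. PIK3CD rose by 0.78 ± 0.22 (adjusted p = 0.00517), and the call of PIK3CA at 0.28 ± 0.10 (adjusted p = 0.0272) was lost without replicate 4 (adjusted p = 0.0618), and without untreated replicates 1 or 2 or S2D4 replicate 1 (adjusted p = 0.0575, 0.102 and 0.0515). MTOR (-0.10 ± 0.11, adjusted p = 0.451), PIK3CB (0.09 ± 0.16, adjusted p = 0.632) and PRKDC (-0.26 ± 0.21, adjusted p = 0.3) did not pass.

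Genes of cell division fell together. Of 50 tested genes of mitosis and the spindle, 49 fell and none rose, with a median log2 fold change of -2.76 against -0.02 over all genes. BUB3, at -0.10 ± 0.08 (adjusted p = 0.265), was the gene not called. In all 49 the groups did not overlap, against a background of 26.8%. KIF20A, a kinesin of cytokinesis, read 94, 91.9, 76 and 76.1 CPM in untreated cells and 4.19, 4.32, 4.05 and 4.5 CPM in S2D4, a fall, at -4.30 ± 0.23 (adjusted p = 1.64e-10). The mitotic kinases PLK1, AURKB and CDK1 fell, at -2.98, -3.14 and -2.75 on the log2 scale, and FOXM1, a transcription factor of the G2 phase, at -3.49. The list's median was between -2.89 and -2.80 in S2D4 replicates 1 to 3 and -2.35 in replicate 4.

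DNA replication genes were also lower. Of 40 tested, 38 fell and none rose, with a median of -1.36. Without replicate 4 all 40 were lower, MCM7 and POLE included. TK1, the thymidine kinase of S phase, read 112, 99, 91.5 and 69.2 CPM in untreated cells and 7.13, 6.28, 6.15 and 21.9 CPM in S2D4, a fall, at -3.14 ± 0.37 (adjusted p = 1.61e-06), and -3.83 ± 0.26 without replicate 4, its highest library. The ribonucleotide reductase subunit RRM2 fell, at -2.78 and the helicase subunits MCM2 and MCM6 at -0.96 and -0.45. The groups did not overlap in 37 of the 40.

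The promoters of both lists were searched for an element known from cell cycle genes. The cell cycle genes homology region (CHR), searched as TTTGAA or TTTAAA on both strands, is the element to which the repressor complex DREAM and the activator MYB-MuvB bind. It was in 36 of 43 windows of the mitosis list (83.7%) and in 16.3% of all windows, 17.9% of those of genes that fell and 13.9% of those of genes that rose. In 34 of the 36 genes a match lay within 100 bases before and 50 bases after the start. Of the DNA replication windows 4 of 35 (11.4%) held it. CCAAT was in 72.1% of the mitosis windows, 54.3% of the replication windows and 36.3% of all. Below are stretches around the element in genes of the list that fell strongly, shown to give its position next to the start; capitals mark the CHR, and the position is that of its first base.
KIF20A, chr5:138179053-138179094, plus strand, -41: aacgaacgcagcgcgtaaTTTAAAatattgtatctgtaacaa
CCNB2, chr15:59105099-59105140, plus strand, -29: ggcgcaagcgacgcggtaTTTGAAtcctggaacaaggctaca
CENPA, chr2:26785981-26786022, plus strand, -57: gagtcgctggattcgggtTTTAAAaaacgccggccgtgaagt
ESPL1, chr12:53268250-53268291, plus strand, -31: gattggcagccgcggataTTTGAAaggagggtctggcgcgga
KIF4A, chrX:70290052-70290093, plus strand, -34: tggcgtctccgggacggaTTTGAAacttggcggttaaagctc
CCNB2, the mitotic cyclin B2, fell, at -3.51, CENPA, the centromeric histone, at -3.50, ESPL1, the separase that cuts cohesin, at -3.17, and the chromokinesin KIF4A at -3.13 on the log2 scale. These shares are descriptions of the windows and were not tested.

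**Figure D3:**
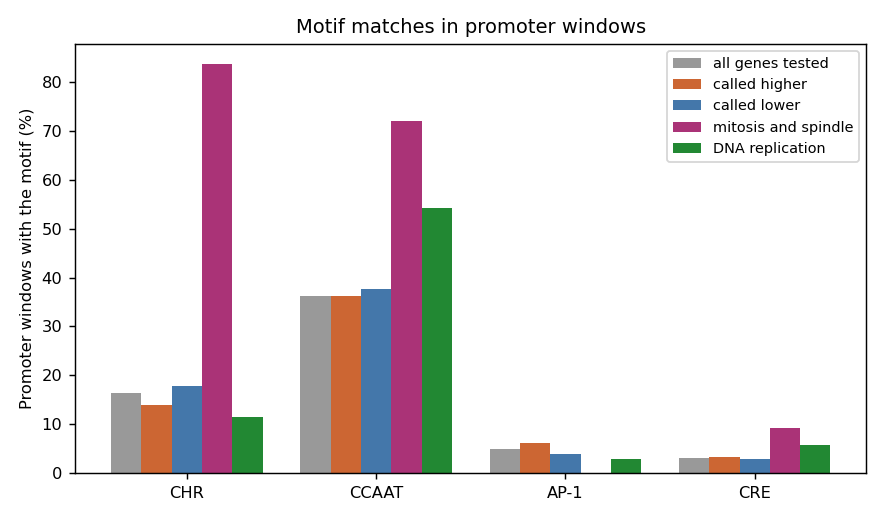
Share of RefSeq promoter windows (250 bases before to 50 after the start) that hold each motif on either strand, for all genes tested, genes called higher or lower, and the mitosis and DNA replication lists; bars start at 0 and the y axis is in percent. The CHR bar of the mitosis list reaches 83.7%, while the bars of all genes, genes called higher and genes called lower lie between 13.9% and 17.9%.

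Regulators of the G1 phase moved in different directions, with 5 of 26 higher and 12 lower. CDKN1A, the CDK inhibitor p21, read 14.3, 14.7, 12.3 and 10.2 CPM in untreated cells and 522, 558, 557 and 652 CPM in S2D4, a rise of 5.47 ± 0.14 (adjusted p = 5.76e-14), with replicate 4 the highest. CDKN2B, the inhibitor p15, rose by 5.29 and CDKN1C, p57, by 2.01. CDKN2C, the inhibitor p18, fell from 115, 109, 133 and 102 to 10.3, 11.7, 11.6 and 9.87 CPM, a change of -3.40 ± 0.17 (adjusted p = 8.77e-11). E2F1, the S-phase transcription factor, fell, at -2.50, the cyclin CCNE1 at -1.76, and the cyclin CCND1 rose by 1.58. Of 22 tested genes that are targets of p53, 10 rose and 10 fell. GDF15, a secreted stress signal, was called at 6.81 ± 0.77 (adjusted p = 9.74e-07), with 212 to 228 CPM in replicates 1 to 3 and 2110 CPM in replicate 4, and rose by 5.14 ± 0.26 without that library. TP53I3 fell, at -3.54 ± 0.25 (adjusted p = 3.27e-09) and MDM2, whose product degrades p53, at -0.28.

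Immediate early genes, which cells switch on within minutes of a signal, were high after 4 days in S2D4. Of 26 tested genes of AP-1 and the immediate early class, 25 rose and none fell, with a median of 2.85. FOS rose by 3.45, FOSB by 5.59, FOSL1 by 3.39, JUN by 3.45 and JUNB by 2.60. JUND had a log2 fold change of -0.26 (adjusted p = 0.208) and was lower without replicate 4 (-0.52 ± 0.12, adjusted p = 0.00127). EGR1 read 29.8, 32.6, 18.4 and 18.4 CPM in untreated cells and 1640, 1630, 1570 and 869 CPM in S2D4, a rise of 5.84 ± 0.35 (adjusted p = 5.82e-10). The groups did not overlap in 24 of the 26 genes, against a background of 24.3%, and the list's median was 2.53 to 2.69 in replicates 1 to 3 and 2.98 in replicate 4.

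Genes that ERK signalling induces, many of them its own brakes, rose in 16 of 20 cases and fell in none. LIF, a cytokine of the interleukin 6 family, read 5.59, 7.23, 3.11 and 3.61 CPM in untreated cells and 861, 849, 919 and 536 CPM in S2D4, a rise of 7.34 ± 0.30 (adjusted p = 7.38e-12). The ERK phosphatases DUSP6, DUSP4 and DUSP5 rose by 2.65, 2.61 and 3.03, and the pathway inhibitor SPRY4 by 2.07. The members not called were ETV1, ETV4, ETV5 and SPRY1, with log2 fold changes of -0.29, 0.20, 0.17 and 0.20.

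Of 26 genes that FOXO factors induce or that feed back on PI3K, 14 rose and 5 fell. IRS2, the adaptor of the insulin and IGF1 receptors, read 30.8, 33.5, 27.5 and 49 CPM in untreated cells and 451, 449, 457 and 686 CPM in S2D4, a rise of 3.86 ± 0.19 (adjusted p = 5.41e-11). IRS1 rose by 2.83, TXNIP by 2.98 and FOXO1 by 2.15. Other members that are commonly read as FOXO targets fell, among them the antioxidant sestrin SESN3 at -2.31 ± 0.28 (adjusted p = 1.88e-06), the catalase gene CAT at -1.75 and PDK4 at -2.25, or -3.19 ± 0.47 without replicate 4.

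Most cytokine genes rose, with 15 of 19 tested genes higher and none lower. Beside IL24, IL1B and LIF, IL11 rose by 5.75 and IL33 by 5.49. In 6 of the 19 a group was at or under 3 counts per library, and with such genes at their bound the list's median was 2.98 in place of 3.20. Of 14 chemokine genes 10 rose, and CXCL12, which guides stem and tumour cells, fell, at -2.96, or -3.81 ± 0.48 without replicate 4. CXCL5 was at most 3 counts per untreated library, 23.5 to 26.5 CPM in replicates 1 to 3 and 0.3 CPM in replicate 4. The chemokine median was 3.43 as fitted, 1.94 with such genes at their bound, 2.25 to 2.94 by library in replicates 1 to 3, and 0.55 in replicate 4.

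NF-kB genes were called higher in 15 of 20 cases. TNFAIP3, the deubiquitinase A20 that restrains NF-kB, read 0.448, 0.98, 0.458 and 0.411 CPM in untreated cells and 24.2, 21.5, 24.5 and 11.2 CPM in S2D4, a rise of 5.18 ± 0.38 (adjusted p = 5.83e-09). The inhibitor NFKBIZ rose by 2.69 and the subunit RELB by 1.81, while NFKBIA, which encodes the classical inhibitor of NF-kB, had a log2 fold change of -0.01 (adjusted p = 0.981). CD83 fell, at -1.78 ± 0.36 (adjusted p = 0.000398).

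Of 30 growth factors and their binding proteins 16 rose and 6 fell. EREG, the EGF receptor ligand epiregulin, read 0.237, 0.187, 0.204 and 0.38 CPM in untreated cells and 28.9, 23.2, 26.8 and 6.67 CPM in S2D4, a rise of 6.32 ± 0.44 (adjusted p = 3.4e-09). VEGFA, which drives vessel growth, rose by 3.04 and IGFBP5 by 4.16. IGF2, a growth factor that signals through the IGF1 receptor, held 0.365% to 0.5% of counts in untreated cells and 1.434% to 1.529% in S2D4, and rose by 1.94 ± 0.13 (adjusted p = 2.21e-09). IGFBP4, which binds IGFs, fell, at -3.65 ± 0.35 (adjusted p = 1.37e-07), or -4.41 ± 0.15 without replicate 4.

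Proteases and their inhibitors moved both ways, with 14 of 25 higher and 6 lower. Beside MMP1 and MMP10, the plasminogen activator inhibitor SERPINB2 rose by 7.48, the inhibitor TIMP1 by 3.85 and the urokinase receptor PLAUR by 3.24. The urokinase gene PLAU itself fell, at -1.90, and the membrane protease MMP15 fell from 82, 85.5, 57.5 and 61.1 to 4, 5.21, 4.59 and 4.87 CPM, a change of -3.94 ± 0.18 (adjusted p = 3.33e-11). ADAMTS6 read 22.5 to 26.5 CPM in S2D4 replicates 1 to 3, 0.934 CPM in replicate 4 and 2.19 to 3.26 CPM in untreated cells, so its groups overlapped (log2 fold change 2.86 ± 0.59, adjusted p = 0.000493; 3.26 ± 0.20 without replicate 4).

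Matrix genes were in the main lower. Of 29 matrix glycoproteins and their crosslinkers 20 fell and 5 rose, with a median of -1.35. DCN, the proteoglycan decorin, fell from 60.8, 52.7, 34.2 and 25.1 to 1.54, 1.29, 1.37 and 4.34 CPM, a change of -4.28 ± 0.36 (adjusted p = 3.21e-08), or -4.94 ± 0.31 without replicate 4. FN1, fibronectin, fell, at -2.48 and LUM, lumican, at -1.82. The 5 that rose were SPOCK1 (5.44 ± 0.14, adjusted p = 5.76e-14), the tenascins TNC (5.39) and TNXB (3.13), and the thrombospondins THBS1 (2.69) and THBS2 (4.82). Of 25 collagens 13 fell and 9 rose. COL1A1, the main chain of type I collagen, fell from 581, 622, 582 and 550 to 79.8, 76.6, 83 and 152 CPM (-2.58 ± 0.18, adjusted p = 3.68e-09), while the basement membrane chain COL4A6 rose from 0.474, 1.21, 0.306 and 1.08 to 23.8, 26.2, 24.2 and 3.84 CPM (4.65 ± 0.52, adjusted p = 7.87e-07).

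Receptors and cytoskeleton were mixed. Of 26 integrins and laminins 13 rose and 9 fell. ITGA2, a collagen-binding integrin chain, rose from 15.4, 16.3, 11.7 and 21.8 to 422, 378, 419 and 235 CPM (4.47 ± 0.23, adjusted p = 1.08e-10), and ITGA8 fell, at -2.33 ± 0.49 (adjusted p = 0.000613), or -3.63 ± 0.29 without replicate 4. Of 20 contractile and actin genes 6 rose and 8 fell, with a median of 0.01. Without replicate 4, 6 rose and 10 fell, with a median of -0.45. The filamin FLNA rose by 1.27 ± 0.11 (adjusted p = 3.06e-08) and ACTA2, smooth muscle actin, fell, at -3.01 ± 0.56 (adjusted p = 0.000168). In GENCODE 29, 30.1% of the exon bases of ACTA2 lie opposite another gene. Of 22 YAP and TEAD targets 11 rose and 4 fell. CTGF, a matricellular target of YAP, read 2.13, 1.91, 1.07 and 0.316 CPM and 17.5, 14, 16 and 4.1 CPM (3.23 ± 0.51, adjusted p = 3.66e-05). ANKRD1, another such target, fell, at -5.12 ± 1.06 (adjusted p = 0.000491), at -4.28 without untreated replicate 1 and -5.90 without S2D4 replicate 2.

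The TGF-beta and BMP list had 14 of 31 genes higher and 14 lower, or 13 higher and 15 lower without replicate 4. BMP2, a bone morphogenetic protein, read 0, 0.28, 0 and 0 CPM in untreated cells and 20.6, 19.5, 19.5 and 3.5 CPM in S2D4, a rise of 8.02 ± 0.71 (adjusted p = 6.07e-08), and of 11.52 without untreated replicate 2, the only untreated library with a count. INHBA, the activin A chain, rose by 7.37, and its antagonist FST, follistatin, was at least 41.3-fold higher. The BMP target genes ID1 and ID3 fell, at -2.19 and -2.10, and SMAD6, an inhibitory SMAD that BMP signals induce, at -4.21, while ID4 rose by 4.604. TGFBI, a matrix protein that TGF-beta induces, fell from 24.2, 19.5, 12.7 and 10.2 to 0.482, 0.28, 0.683 and 0.4 CPM, a change of -5.16 ± 0.33 (adjusted p = 1.13e-09).

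Adrenergic genes fell and mesenchymal genes rose, each more in replicates 1 to 3 than in replicate 4. Of 25 genes of adrenergic factors and catecholamine handling 18 fell and 4 rose; the 4 were VGF, TH, and the granins SCG2 and SCG3. The list's median was -1.49 with all libraries and -1.87 without replicate 4, and by library it was -1.63, -1.77, -1.85 and -0.49. GATA3, a zinc finger factor of the sympathetic lineage, read 132, 133, 156 and 136 CPM in untreated cells and 38.9, 38.6, 36.6 and 103 CPM in S2D4, a fall, at -1.35 ± 0.25 (adjusted p = 0.00019; -1.87 ± 0.10 without replicate 4). DDC, the decarboxylase that makes dopamine, was at most 3 counts in every S2D4 library and at least 54.2-fold lower than in untreated cells (adjusted p = 3.36e-09).

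TH, the rate-limiting enzyme of catecholamine synthesis, read 0.158, 0.607, 0.153 and 0.221 CPM in untreated cells and 1.25, 0.729, 0.732 and 25.8 CPM in S2D4; its call at 4.75 ± 1.10 (adjusted p = 0.00129) rested in size on replicate 4, and it was 1.75 ± 0.56 without it (adjusted p = 0.0121). DBH, which turns dopamine into noradrenaline, read 62.5, 61.1, 106 and 94.7 CPM and 2.46, 3.53, 3.56 and 30.9 CPM, a fall, at -2.96 ± 0.58 (adjusted p = 0.000316) or -4.67 ± 0.24 without replicate 4. CHGA read 3470, 3180, 8650 and 6920 CPM and 500, 593, 605 and 4050 CPM, with replicate 4 inside the untreated range (-1.95 ± 0.58, adjusted p = 0.00746; -3.29 ± 0.36 without replicate 4). HAND2, another factor of the lineage, fell, at -0.49 ± 0.10 (adjusted p = 0.000453).

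Of 26 mesenchymal-state factors 17 rose and 5 fell, and the median was 1.52, or 1.88 without replicate 4. By library it was 1.90, 1.79, 1.86 and 0.86. RUNX1 read 5.56, 4.53, 3.62 and 3.57 CPM in untreated cells and 85.9, 79.1, 76.7 and 42.2 CPM in S2D4, a rise of 4.02 ± 0.21 (adjusted p = 1.54e-10). PRRX1, which can drive the mesenchymal state, rose by 2.96 ± 0.18 (adjusted p = 6.22e-10), to 235 to 245 CPM in replicates 1 to 3 and 117 CPM in replicate 4. SNAI2 read 3.06 to 6.22 CPM in untreated cells, 17.2 to 20.1 CPM in replicates 1 to 3 and 3.37 CPM in replicate 4, inside the untreated range. NOTCH3, a receptor counted with the same state, fell from 167, 171, 157 and 238 to 4.05, 3.76, 4.83 and 8.67 CPM, a change of -5.08 ± 0.25 (adjusted p = 6.88e-11), and TWIST1 fell, at -0.94. SNAI1 fell, at -1.59, or -2.49 ± 0.17 without replicate 4. The list thus held a factor that fell more than any other member rose.

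**Figure D4:**
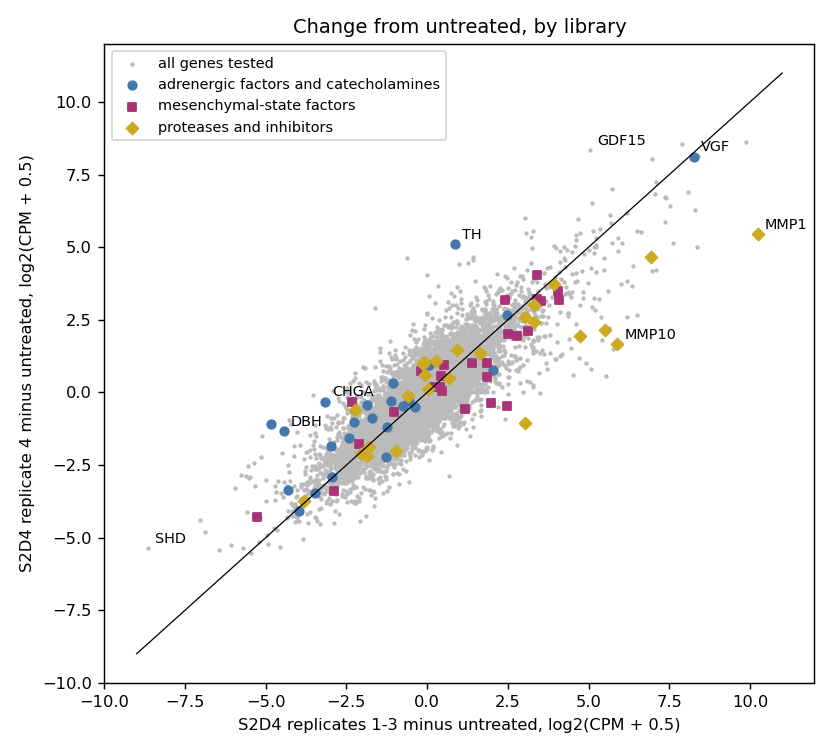
Change from the untreated mean in S2D4 replicate 4 (y axis) against the mean of S2D4 replicates 1 to 3 (x axis), both on the log2(CPM + 0.5) scale; each point is a gene, with 3 lists in colour, and the line marks equal change. TH, DBH and CHGA lie above the line and MMP1 and MMP10 below it, while VGF lies on it.

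Replicate 4 differed from the other S2D4 libraries over many genes, not a few. Among 9804 genes with a mean of at least 10 CPM over the S2D4 libraries, 379 were at least 2-fold above all 3 others in replicate 4 and 261 at least 2-fold below, while each of the others had none above and 1 or 2 below. The farthest above were ANO9 (60.3 CPM against 0.82 to 1.29), CNTFR (78.8 against 5.56 to 6.27), CDH24 (135 against 11.2 to 13.2), BAIAP3 (71.2 against 5.46 to 7.18) and GDF15. ANO9 was called higher with replicate 4 (3.01 ± 1.09, adjusted p = 0.0233); without it the value was -0.86 ± 0.71 (adjusted p = 0.3). Its call was also lost without untreated replicates 1, 3 or 4 (adjusted p = 0.0555, 0.0524 and 0.0516). CNTFR, the receptor for ciliary neurotrophic factor, fell, at -3.18 ± 0.65 (adjusted p = 0.000412) with it and -5.22 ± 0.10 without it. CDH24 fell, at -1.75 ± 0.59 (adjusted p = 0.0165) and -3.59 ± 0.12, and BAIAP3 rose by 2.99 ± 0.67 (adjusted p = 0.000998) and 1.12 ± 0.20. The farthest below were CXCL5, CD93 (0.5 CPM against 18.1 to 20.5), MMP1, MMP10 and ADAMTS6. Nothing in the labels sets this library apart from the other 3. It was the deepest of the S2D4 libraries, at 34292076 counts against 18793711 to 21771432, and the part of depth in these values was not tested.

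Neuronal gene groups did not move as a block. Of 28 genes of the neuronal cytoskeleton and growth cone 16 fell and 4 rose, with a median of -0.84. GAP43, a protein of growing axons, rose from 6.06, 6.02, 4.02 and 4.02 to 83.5, 90.4, 80.7 and 11.6 CPM, a change of 3.72 ± 0.49 (adjusted p = 5.2e-06), with replicate 4 nearest to the untreated libraries. DCX, doublecortin of migrating neurons, fell from 4.4, 5.09, 5.4 and 11.5 to 0.289, 0.449, 0.146 and 0.2 CPM (-4.63 ± 0.48, adjusted p = 3.93e-07), and TUBB3 at -0.37. Of 33 synaptic vesicle and active zone genes 13 rose and 10 fell. Synaptophysin, SYP, rose by 2.85, the priming factor UNC13A by 2.96 and the adhesion molecule NRXN3 by 3.68 ± 0.30 (adjusted p = 2.41e-08), while SYN2 fell, at -2.24 ± 0.13 (adjusted p = 3.28e-10).

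Of 32 voltage-gated channel genes 15 fell and 7 rose. KCNMA1, the calcium-activated BK potassium channel, rose from 11.4, 13.6, 6.11 and 7.84 to 71.5, 67.1, 73.7 and 17.2 CPM (2.55 ± 0.35, adjusted p = 9.45e-06). The calcium channel subunit CACNA2D2 fell from 34.5, 38.4, 41.2 and 56.1 to 3.86, 4.54, 4.59 and 3.87 CPM (-3.34 ± 0.15, adjusted p = 2.37e-11), and the potassium channel KCNH2 at -2.96. Of 44 axon guidance genes 13 rose and 15 fell, at about the background shares. SEMA7A, a membrane-bound semaphorin, rose from 1.48, 2.1, 2.44 and 1.96 to 115, 133, 137 and 139 CPM (6.07 ± 0.17, adjusted p = 1.19e-13), and the secreted ligand SLIT3 fell from 329, 353, 360 and 404 to 10.1, 8.8, 9.12 and 9.57 CPM (-5.26 ± 0.10, adjusted p = 1.54e-15). In both genes the 4 libraries of each group lay close together.

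Receptors for trophic factors were lower in 13 of 26 cases and higher in 7. AXL, a receptor kinase of the TAM family, rose from 19, 18.5, 9.93 and 9.05 to 109, 104, 111 and 48.4 CPM (2.71 ± 0.26, adjusted p = 1.7e-07), FGFR1 by 2.18 and EGFR by 1.41. GFRA2, a co-receptor of RET, fell, at -4.58 ± 0.56 (adjusted p = 2.51e-06), or -6.45 ± 0.27 without replicate 4. RET fell, at -1.06 (adjusted p = 0.0407), or -2.12 ± 0.16 without replicate 4. Among 17 surface targets of neuroblastoma therapy and genes of GD2 ganglioside synthesis, 8 fell and 6 rose. The GD2 synthase B4GALNT1 fell, at -2.88 and the GD3 synthase ST8SIA1 at -1.45. THY1 fell, at -4.47 ± 0.54 (adjusted p = 2.13e-06), or -6.12 ± 0.21 without replicate 4, while the hyaluronan receptor CD44 rose from 13.9, 10.4, 7.33 and 5.63 to 92.1, 86.1, 81.5 and 43.4 CPM (3.01 ± 0.26, adjusted p = 3.87e-08) and the receptor kinase ALK by 2.44.

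Of 19 genes of retinoic acid response and metabolism 9 fell and 7 rose. CRABP2, which carries retinoic acid to its receptor, read 756, 574, 776 and 551 CPM in untreated cells and 15.4, 13.9, 17.7 and 120 CPM in S2D4, a fall, at -3.98 ± 0.56 (adjusted p = 1.15e-05) or -5.40 ± 0.20 without replicate 4. RDH10, which makes retinaldehyde, rose by 3.36 ± 0.21 (adjusted p = 7.39e-10). The list's median was between -1.09 and -0.99 in replicates 1 to 3 and 0.32 in replicate 4. Schwann and glial markers moved both ways, with 3 of 13 higher and 4 lower; EGR2 is counted here again, and CNP fell, at -0.73 ± 0.14 (adjusted p = 0.000255).

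Stress pathways differed from each other. Of 24 chaperones and sensors of the endoplasmic reticulum 19 rose and none fell, with a median of 0.75. ERN1, the sensor IRE1, read 15.6, 16.9, 17 and 27.3 CPM in untreated cells and 65.5, 57.3, 67.3 and 67.7 CPM in S2D4, a rise of 1.74 ± 0.15 (adjusted p = 4.37e-08), and the chaperone HSP90B1 rose by 1.23. Of 23 genes of the integrated stress response 13 rose and 6 fell. PPP1R15A (GADD34), which lets translation resume, read 31.4, 28.5, 22.8 and 18.4 CPM and 420, 428, 461 and 572 CPM, a rise of 4.22 ± 0.16 (adjusted p = 2.82e-12), and DDIT3 (CHOP) rose by 2.43. The 6 that fell included the serine synthesis enzymes PHGDH (-2.69 ± 0.39, adjusted p = 1.44e-05), PSAT1 (-1.92) and PSPH (-1.53).

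Cytosolic heat shock genes fell in 11 of 19 cases, and HSF1 alone rose (0.54 ± 0.08, adjusted p = 2.92e-05). The cochaperone DNAJA1 fell from 311, 283, 353 and 294 to 104, 98.6, 102 and 127 CPM, a change of -1.52 ± 0.10 (adjusted p = 1.84e-09), and HSPB1 at -1.01. Of 25 NRF2 targets and ferritins 12 fell and 7 rose. The metallothionein MT2A, which binds zinc and copper, read 29.5, 24.3, 22.9 and 11.8 CPM in untreated cells and 668, 623, 524 and 388 CPM in S2D4, a rise of 4.64 ± 0.27 (adjusted p = 3.85e-10). The aldo-keto reductase AKR1C1 fell, at -3.23 ± 0.34 (adjusted p = 3.87e-07), with 21.9% of its 75-base words shared with another gene.

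Lysosome and autophagy genes rose in 25 of 32 cases and fell in 3, with a median of 0.88. GABARAPL1, which coats autophagosomes, read 2.64, 2.52, 2.85 and 1.87 CPM in untreated cells and 11.7, 13.6, 13.8 and 13.2 CPM in S2D4, a rise of 2.41 ± 0.15 (adjusted p = 1.02e-09). The protease TPP1 rose by 2.38, the cholesterol exporter NPC1 by 1.99 and the autophagy receptor SQSTM1 by 1.45. The list's median was 0.67 to 0.74 in replicates 1 to 3 and 1.20 in replicate 4.

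Lipid synthesis genes fell. Of 23 genes of sterol synthesis and uptake 20 fell and 1 rose. STARD4, which carries cholesterol between membranes, fell, at -1.53 ± 0.12 (adjusted p = 1.09e-08) and MVD, an enzyme of the mevalonate pathway, at -1.50. Of 18 genes of fatty acid synthesis 11 fell and 2 rose; ME1, the malic enzyme, fell, at -2.05 ± 0.19 (adjusted p = 1.01e-07) and LPIN1 rose by 0.75 ± 0.09 (adjusted p = 1.34e-06). Of 8 genes of cholesterol efflux 4 rose and APOE fell (-1.37, or -2.22 ± 0.19 without replicate 4). The exporter ABCA1 rose by 2.39 and the sterol receptor NR1H2 by 0.49 ± 0.10 (adjusted p = 0.000435).

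Of 29 genes of glycolysis and the hypoxia response 15 rose and 9 fell. NDRG1 read 7.22, 6.72, 7.28 and 7.31 CPM in untreated cells and 245, 249, 248 and 226 CPM in S2D4, a rise of 5.08 ± 0.18 (adjusted p = 1.63e-12), and the glucose transporter SLC2A3 rose by 3.75. EGLN3, an oxygen sensor that hypoxia normally induces, fell from 65.6, 53.8, 42.1 and 36 to 2.22, 2.58, 2.49 and 3.5 CPM (-4.18 ± 0.21, adjusted p = 9.54e-11). Of 45 nuclear genes of the respiratory chain 34 fell and 2 rose, with a median of -0.46; NDUFB9 fell, at -1.09 ± 0.12 (adjusted p = 6.4e-07) and ATP5E rose by 0.78 ± 0.12 (adjusted p = 3.86e-05). In GENCODE 29, 21% of the exon bases of NDUFB9 lie opposite another gene. Of 13 mitochondrial genes 8 fell; MT-ND3 fell, at -2.18 ± 0.24 (adjusted p = 6.43e-07) and MT-ND1 rose by 0.80. The mitochondrial share of counts, given above, varied more among untreated libraries than among S2D4 libraries.

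Genes of cytosolic ribosomal proteins fell in 61 of 73 cases and rose in none, by a median of -0.61. RPL29 read 659, 538, 598 and 382 CPM in untreated cells and 267, 273, 260 and 285 CPM in S2D4, a fall, at -1.005 ± 0.13 (adjusted p = 3.17e-06), the largest of the list. Of 30 ribosome biogenesis genes 13 rose and 5 fell. RRP12 rose from 125, 131, 151 and 135 to 342, 363, 378 and 424 CPM (1.48 ± 0.09, adjusted p = 4.11e-10), and FBL, the methyltransferase fibrillarin, fell, at -1.18 ± 0.13 (adjusted p = 7.73e-07).

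Of 28 interferon-stimulated genes 7 rose and 10 fell. IRF7 rose by 2.01 ± 0.28 (adjusted p = 9.37e-06), and IFI44L fell from 4.74, 5.32, 6.21 and 5.95 to 1.21, 0.841, 0.488 and 0.133 CPM (-3.09 ± 0.39, adjusted p = 2.89e-06). Antigen presentation by MHC class I was higher in 11 of 17 genes. HLA-B read 4.48, 4.67, 3.11 and 2.15 CPM in untreated cells and 11.3, 9.48, 7.76 and 31.2 CPM in S2D4 (2.06 ± 0.42, adjusted p = 0.000438; 1.40 ± 0.31 without replicate 4), and B2M, its light chain, rose by 1.01, while the proteasome subunit PSMB9 fell, at -0.91 ± 0.21 (adjusted p = 0.00109). HLA genes share sequence, so reads may be split between them. PTPRC fell from 180, 185, 169 and 214 to 24.6, 25.2, 24.7 and 23.4 CPM, a change of -2.93 ± 0.14 (adjusted p = 6.48e-11). CD68, a lysosomal protein, rose by 2.75 ± 0.25 (adjusted p = 7.97e-08), and 70.6% of its 75-base words are shared with another gene. KRT18, a keratin, rose by 0.95 ± 0.26 (adjusted p = 0.00447), with its untreated and S2D4 libraries at 30.1 to 76.2 and 76.4 to 165 CPM. Of 16 glucocorticoid-responsive genes 6 rose and 3 fell; SGK1 and DUSP1 rose by 4.62 and 4.44, and TSC22D3, a common reporter of the receptor, fell, at -1.44 ± 0.16 (adjusted p = 6.84e-07).

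**Figure D5:**
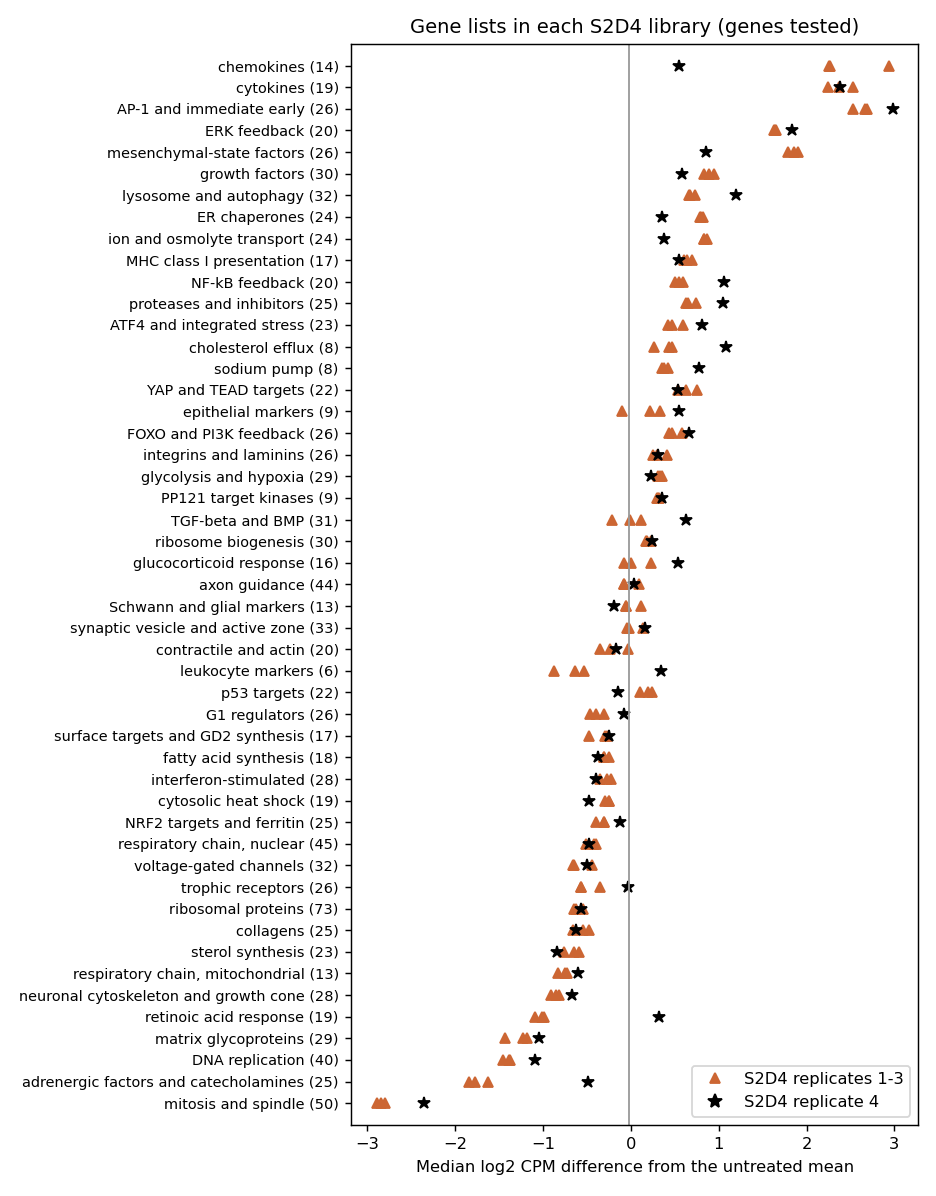
Median log2 CPM difference from the untreated mean over the tested genes of each of 49 lists, 1 point per S2D4 library; the number of tested genes stands in brackets and the grey line is the median of all genes. The mitosis list lies lowest in every library, at -2.35 in replicate 4, and replicate 4 (star) lies outside the range of the other 3 libraries in 40 of the 49 lists.

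S2D4 was also set against its nearest groups. It differed from S1D4, the start of the stage, in 8712 genes (55.1%), 4470 higher (28.3%) and 4242 lower (26.8%), and from S2D30 in 8111 genes (51.3%), 4248 higher (26.9%) and 3863 lower (24.4%). These comparisons share the S2D4 libraries, and the values below are given side by side without a test of their agreement. The means and contrasts of single genes and lists below include S2D4 replicate 4. Mean levels of NPTX1 were 1.08 CPM in S1D4, 205 CPM in S2D4 and 99.7 CPM in S2D30, with S2D4 above both (7.56 and 1.04, adjusted p = 3.01e-13 and 1.6e-05). MMP1 was 30.4, 1280 and 10210 CPM in the same order, above S1D4 and below S2D30 (5.40 and -2.996, adjusted p = 5.95e-06 and 0.000609). VGF was 11110, 65360 and 39230 CPM, above both (2.56 and 0.74, adjusted p = 2.87e-08 and 0.00373).

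UTS2 was 15.6 CPM in S1D4, 334 CPM in S2D4 and 26.1 CPM in S2D30, above both neighbours (4.42 and 3.68, adjusted p = 1.07e-07 and 5.72e-07). GAP43 was 14.4, 66.5 and 1.94 CPM, and SEMA7A 53.4, 131 and 14.6 CPM. Both were likewise higher in S2D4 than in each of the other groups at an adjusted p of at most 0.000609. For GAP43 this did not hold in every library, as S2D4 replicate 4 read 11.6 CPM, inside the S1D4 range of 8.31 to 19.9 CPM. STC1 rose from S1D4 (5.68, adjusted p = 8.4e-10) and did not differ by the test from S2D30 (-0.04, adjusted p = 0.904). SAMD11 had reached its low level in S1D4, at 0.734 CPM, and S2D4 did not pass against it (-0.12, adjusted p = 0.85). COL1A1 did not pass against S1D4 either, at 96.2 CPM there (0.03, adjusted p = 0.908). Against S2D30 the 2 genes differed: in S2D4 SAMD11 was lower (-1.62, adjusted p = 0.00321) and COL1A1 higher (1.16, adjusted p = 3.96e-05).

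Mitosis genes in S2D4 mostly lay between the neighbours. Of the 50 mitosis genes 44 were lower in S2D4 than in S1D4 (26.8% of all genes were) and 47 were higher than in S2D30 (26.9% of all genes were), and KIF20A was 18.2, 4.27 and 0.348 CPM in the order S1D4, S2D4 and S2D30. Of the 40 replication genes 12 (30%) were lower than in S1D4 and 2 higher, with a median of -0.14, which is near the background share of 26.8%, and 36 were higher than in S2D30. Of 25 adrenergic genes 18 were lower than in S1D4 and 20 higher than in S2D30. In 23 of 32 lysosome genes and 21 of 23 sterol genes S2D4 was lower than S2D30.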

How the data were processed

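RNA of the 22 libraries of the series was sequenced, of which 8 were compared and 16 (all SK-N-AS) entered the model. The authors deposited raw counts per gene for 35237 gene symbols, per the file headers; that they are whole-number counts was checked on the values. The aligner, counting tool, genome build, annotation and strand setting are not given in the sources used here, so no gene coordinates come from the counts. Groups follow the labels. Library totals of 18793711 to 37506800 counts limit the precision. The ± values come from the fit and include the spread between libraries, while the floors cover counting error only. In R 4.3.3 and edgeR 4.0.16, genes passed filterByExpr (minimum count 10, minimum total 15), libraries were scaled by TMM, and contrasts were tested with glmQLFit and glmQLFTest without a replicate block, adjusted by Benjamini-Hochberg at 0.05. For correlations and principal components a prior count of 2 was added to log2 CPM. A gene with at most 3 counts in every library of a group was at the floor. Its fold is a bound, the mean of the other group against 3 counts in the smallest library.

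The 128 named genes are the 14 largest rises and 14 largest falls that were called with and without S2D4 replicate 4, had a mean of at least 10 CPM and had groups that did not overlap (1 unnamed locus was passed over); the largest such rise and fall of each of 49 lists (at least 5 CPM); all tested sodium pump and PP121 kinase genes; and the 5 genes in which replicate 4 lay farthest above or below the rest. The groups, lists (1270 symbols, all found, 12 under older symbols) and rules were chosen with earlier results of these data known. Values of 3 of the 128 genes, and of some other list members, are not reported here. Promoter windows are RefSeq's (GRCh38.p14), matched by symbol. On data simulated for this comparison over 15486 genes, 50 genes were changed at each of 4 fold sizes. Called were 34% of those changed 1.5-fold, 76% at 2-fold and 100% at 4-fold and 8-fold, none with the wrong sign. Another 13 genes were called though unchanged. Far fewer genes changed in the simulation than the 63.1% called in the data, so these shares may not carry over. Alternatives, including DESeq2 1.42.0 and voom quality weights of limma 3.58.1, are in the closing section.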

Additional observations from a re-analysis of the deposited data

Results flagged for a closer look

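Among the 250 groups of 4 libraries formed by 125 named genes in untreated cells and in S2D4, a library lay far from the rest of its group in 60. Of these, 52 were in S2D4, with replicate 4 apart, and the others were in untreated cells. The 52 include 10 genes named because replicate 4 lay farthest from the rest in them, so their place here follows from that choice. Among the other 115 genes, 42 had a library apart in S2D4, replicate 4 in each; chance alone gives about 1 in 20 groups, and the genes share the same libraries. The library was singled out where its gap to the nearest other library took up most of the group's range (Dixon's test for 4 values). In untreated cells the other libraries of IL24, KIAA0226L and BMP2 read 0 CPM, so any count was singled out. The rate of 1 in 20 does not hold for those groups. No explanation was tested.

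Replicate 4 was the high library, in CPM, for SHD at 6.1, SLC12A7 at 106, SRC at 103 and TK1 at 21.9. It was also the highest for GDF15 at 2110, IRS2 at 686, IGFBP4 at 31.4, COL1A1 at 152, DCN at 4.34 and CNP at 104. Further genes with the high value in replicate 4 were CRABP2 at 120, IRF7 at 75.4, CD68 at 138, KRT18 at 165, THY1 at 11.1 and ANO9 at 60.3. The last of these were CNTFR at 78.8, CDH24 at 135 and BAIAP3 at 71.2.

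The low library was replicate 4 for IL24 at 8.81, GALNT9 at 10, MMP1 at 60.7, KIAA0226L at 3.47, STC1 at 1390 and IRX4 at 8.71. At lower levels than the others in the same library were THBD at 2.94, CXCL8 at 89.5, IL1B at 26, MMP10 at 1.23, COL22A1 at 1.37 and UTS2 at 101. Low values in replicate 4 were also those of FXYD5 at 47.9, AKR1B1 at 24.8, PDGFRA at 61, LIF at 536, TNFAIP3 at 11.2 and EREG at 6.67. Replicate 4 likewise read lowest for COL4A6 at 3.84, CTGF at 4.1, BMP2 at 3.5, LPIN1 at 78.2, NR1H2 at 89.4 and RUNX1 at 42.2. The same held for GAP43 at 11.6, NRXN3 at 4.8, KCNMA1 at 17.2, AXL at 48.4, RDH10 at 81.5 and CD44 at 43.4. To these came CXCL5 at 0.3, CD93 at 0.5 and ADAMTS6 at 0.934.

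In untreated cells the library apart was replicate 1 for IL24 (0.0527 CPM), replicate 3 for KIAA0226L (0.0509 CPM), replicate 2 for TNFAIP3 (0.98 CPM), replicate 2 for BMP2 (0.28 CPM), replicate 4 for ERN1 (27.3 CPM), replicate 2 for NDRG1 (6.72 CPM), replicate 2 for ANO9 (3.17 CPM) and replicate 1 for BAIAP3 (2.11 CPM).

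Of the 49 list medians, 10 had replicate 4 apart by the same measure, on the scale of log2 differences from untreated: sodium pump at 0.77, ion and osmolyte transport at 0.37, mitosis and spindle at -2.35, ERK feedback at 1.83, NF-kB feedback at 1.06, ER chaperones at 0.36, lysosome and autophagy at 1.20, adrenergic factors and catecholamines at -0.49, mesenchymal-state factors at 0.86 and retinoic acid response at 0.32. The lists share genes and libraries.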

How the results depend on the processing

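The counts of genes higher and lower than untreated stayed within 1.5 times the reported 4879 and 5097 under every other scaling, filter, model and test run, from 4047 (2 groups alone, higher) to 5749 (voom quality weights, lower). Leaving out each of the 8 libraries gave 4572 to 5156 higher and 4693 to 5520 lower than untreated, 4203 to 4801 and 3923 to 4713 against S1D4, and 4049 to 4518 and 3593 to 4268 against S2D30. Calls that also differed at least 2-fold numbered 2096 higher and 2481 lower, 1406 and 2019 against S1D4, and 1506 and 1603 against S2D30; fewer genes pass that rule by its construction. Higher genes were 48.9% of calls, 44.3% with upper-quartile factors, which moved the median of all genes by -0.07, and 50.4% without untreated replicate 1. The mean correlation of S2D4 replicate 4 with the other 3 was 0.9639, and 0.9566 with a prior count of 0.5. The voom quality weight was 0.086 for S2D4 replicate 4 and 0.188 for untreated replicate 4. The other SK-N-AS libraries had weights of 0.744 to 2.86. Without replicate 4 the differences in composition were -3.231 (mitochondrial percent), -2.075 (ribosomal percent), 3.955 (percent in the 20 highest genes) and -575.2 genes detected.

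Deviations from the group mean in untreated and S2D4 libraries of the same number correlated at 0.028, 0.002, -0.106 and -0.025. S2D4 replicate 4 stands apart in its group, and the S1D4 and S2D30 libraries were not compared this way. These values therefore cannot settle whether the numbers pair the libraries. With the replicate block 4932 genes were higher and 5125 lower, and of the 128 named genes only FXYD1 and ANO9 lost their call (adjusted p = 0.0793 and 0.164, edgeR).

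MTOR reversed to 0.043 with voom quality weights and 0.075 without untreated replicate 4, and PRKDC to 0.083 and 0.028, all without a call; without 1 library at a time MTOR ranged from -0.146 to 0.075 and PRKDC from -0.385 to 0.028. ANO9 reversed to -0.796 with voom weights, -0.858 without S2D4 replicate 4 and -0.862 in the 2 groups alone without it, and ranged from -0.858 to 3.404 without 1 library at a time. Calls of FXYD1, PIK3CA, ANO9 and CDH24 were lost in at least 1 alternative, and PIK3CB was called with voom weights (0.278). The cause was not tested. Leaving out 1 library moved 33 named genes over 1.5-fold, 23 of them through S2D4 replicate 4. The sign of 9 of the 49 list medians changed in at least 1 alternative (p53 targets, contractile, TGF-beta and BMP, synaptic, axon guidance, glial, glucocorticoid, leukocyte, epithelial). Depth limits genes near the floor in a group, where 1 to 3 counts decide a fold. In the smallest library 3 counts were 0.153 CPM for untreated cells and 0.168 CPM for S2D4.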
